A study of Mus musculus with 6 samples.

Results

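The miR-34 family was followed through 6 left ventricles of cyclosporin-treated mice by small-RNA sequencing. Its members were taken by name, as the 4 table entries mmu-miR-34a, mmu-miR-34b-3p, mmu-miR-34b-5p and mmu-miR-34c (written below without the species prefix) of the 698 mature miRNAs listed. All 4 had at least 1 read, and 1, miR-34a, had enough reads for the test across all miRNAs. The 3 control mice were wild type (WT), and the 3 mutant mice (R719W) were heterozygous for an α-myosin heavy chain allele, labelled aMHC719/+, with the R719W change in Myh6, a model of hypertrophic cardiomyopathy. Mice of both genotypes received cyclosporin, a calcineurin inhibitor, for 3 weeks. Every comparison was therefore made under the drug. The labels give neither age nor strain, and title each library as a biological replicate.

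miRNAs are short RNAs that lower the output of messenger RNAs, which they recognise mainly through the seed, bases 2 to 8 from the 5′ end. The miR-34 genes are known as direct targets of the tumour suppressor p53. Through their shared seed their products repress genes of cell cycle progression and survival such as Cdk6, Ccnd1, Met and Bcl2. miR-34a is the broadly expressed member. In the mouse heart it is known to rise with age and after injury, and blocking the family is known to ease cardiac remodelling. miR-34b and miR-34c come from a common transcript and are known from testis, and from lung and other tissues with multiciliated cells, where the related miR-449 miRNAs act with them.

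The sequences show which entries can act through the same seed and which lie close enough to be confused. They are given 5′ to 3′ as DNA letters from the deposited tables, with the seed in capitals. miR-34a, miR-34b-5p and miR-34c share the seed GGCAGTG with miR-449a, miR-449b and miR-449c, and these 6 are the only entries of the tables with it (0.860% of 698). miR-34b-3p is the other arm of the miR-34b hairpin and has another seed, shared only with miR-34c\*.
miR-34a: tGGCAGTGtcttagctggttgt
miR-34b-5p: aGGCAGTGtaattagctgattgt
miR-34c: aGGCAGTGtagttagctgattgc
miR-34b-3p: aATCACTAactccactgccatc
miR-34c\*: aATCACTAaccacacagccagg
miR-449a: tGGCAGTGtattgttagctggt

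miR-34b-5p and miR-34c differ at 2 bases, A11G and T23C, counted from 1 at the 5′ end of miR-34b-5p, the second of which is the last base of both. miR-34a lies 4 edits (substitutions, insertions or deletions) from miR-34b-5p, 5 from miR-34c and 6 from miR-449a, and no entry outside the family came closer than 6 edits to it. Neither the labels nor the file headers say how many mismatches the authors allowed or how reads close to both miR-34b-5p and miR-34c were assigned. The reads of these 2 entries are therefore also given summed.

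The hairpins, from RefSeq (GRCm38.p6), show where each member is cut from, with the arms of the 4 members in capitals. Mir34a lies on the plus strand at chr4:150068454-150068555. GENCODE M21 places only its own exon there, except that the 3′ end of the hairpin overlaps Gm37795, a gene model still awaiting experimental evidence. Mir34b and Mir34c lie on the minus strand at chr9:51103562-51103645 and chr9:51103034-51103110, with 451 bases between them. Both sit inside the protein-coding gene Btg4, which runs on the opposite strand, and overlap none of its exons.
Mir34a: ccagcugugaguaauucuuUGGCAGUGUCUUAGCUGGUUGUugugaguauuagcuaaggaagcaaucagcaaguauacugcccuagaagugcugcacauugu
Mir34b: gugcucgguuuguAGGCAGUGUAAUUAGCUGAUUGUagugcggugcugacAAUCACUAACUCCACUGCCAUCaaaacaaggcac
Mir34c: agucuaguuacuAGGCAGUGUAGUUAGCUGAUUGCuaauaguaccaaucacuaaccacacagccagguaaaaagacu

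Reads on miRNAs came to 765425 to 1192020 per library in WT and 865845 to 1168379 in R719W. Levels are CPM (reads on a miRNA scaled to a common library size) after TMM scaling, which corrects each library total for a few dominant miRNAs. The floor set by a count of 0, 3 reads, corresponded to 2.40 to 4.06 TMM-normalised CPM across the libraries. Intervals and floors cover counting error only, as PCR copies were not marked by molecular identifiers. The tissue label was checked on 6 heart muscle miRNAs (miR-1, miR-133a, miR-133b, miR-208a, miR-208b and miR-499), all of which had reads and which summed to 523747 to 786673 TMM-normalised CPM in WT and 398348 to 547475 in R719W. Most of the sum was miR-1, at means of 557754 in WT and 427773 in R719W. miR-133b had only 2 reads in WT and 6 in R719W. Across all miRNAs, the quasi-likelihood test of edgeR called 36 of the 181 tested (19.9%) below a Benjamini-Hochberg adjusted p of 0.05, of which 23 rose and 13 fell in R719W. The balance of directions depended on the scaling, at 34 higher and 3 lower with library totals alone, 12 and 15 with the size factors of DESeq2, and 28 and 2 with limma on the deposited CPM plus 1. The count also depended on single libraries: it was 4 without WT replicate 1 and 4 without WT replicate 3, 20 without WT replicate 2, 7 without R719W replicate 3 and 56 without R719W replicate 1.

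miR-34a was the main miR-34 miRNA of these ventricles and stood at about the same mean level in both genotypes. In WT it was at 134, 113 and 140 TMM-normalised CPM in replicates 1, 2 and 3, from 99, 93 and 139 reads. In R719W it was at 79.5, 155 and 133 TMM-normalised CPM, from 78, 194 and 141 reads. R719W replicate 1 was the lowest and R719W replicate 2 the highest of the 6, so the genotypes overlapped, whereas 74 of the 181 tested miRNAs (40.9%) had no overlap in either direction. The means were 129 ± 14.1 in WT and 123 ± 38.9 in R719W (SD, n = 3). The log2 fold change of R719W over WT was −0.07 (SE 0.26; edgeR adjusted p = 0.816), which is a fold of 0.95 with a 95% interval of 0.633 to 1.43. Among the tested miRNAs, 7 had a larger p. Tissue RNA cannot tell a change in the number of cells holding a miRNA from a change in its amount per cell, which holds for every comparison here.

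**Figure D1:**
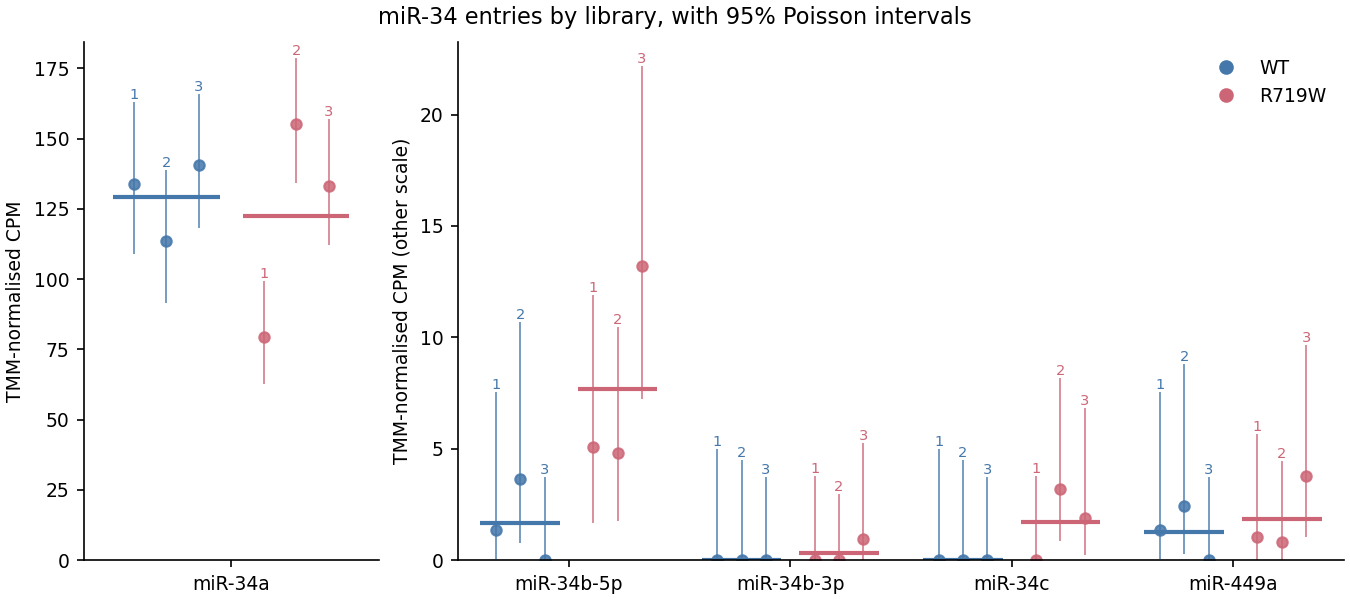
TMM-normalised CPM of miR-34a (left) and of miR-34b-5p, miR-34b-3p, miR-34c and miR-449a (right, on a smaller scale) in each library, numbered by replicate, in WT (blue) and R719W (red). Points are libraries, thin lines 95% Poisson intervals of the reads and thick lines group means. miR-34a overlaps between the genotypes, while the 3 R719W values of miR-34b-5p, at 4.80 to 13.2, all lie above the WT values, at 0 to 3.66.

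The spread of miR-34a in R719W came from replicate 1. Its level there was 61.5% of the WT mean, and R719W replicates 2 and 3 held 1.95 and 1.67 times as much. The Poisson interval of replicate 1, 62.8 to 99.2 TMM-normalised CPM, did not meet those of R719W replicates 2 (134 to 179) and 3 (112 to 157), so the gap was larger than counting error. In WT the CV was 10.9%, under the median of 14.2% over the tested miRNAs, and in R719W it was 31.8%, over the median of 22.2%. Without R719W replicate 1 the log2 fold change turned to 0.12 (SE 0.21; edgeR adjusted p = 0.720), and without R719W replicate 2 it was −0.39 (SE 0.27; edgeR adjusted p = 0.269). The sign also turned with the scaling, to 0.17 with library totals alone, and miR-34a was called in 0 of 16 alternative fits (adjusted p 0.269 to 0.976).

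**Figure D2:**
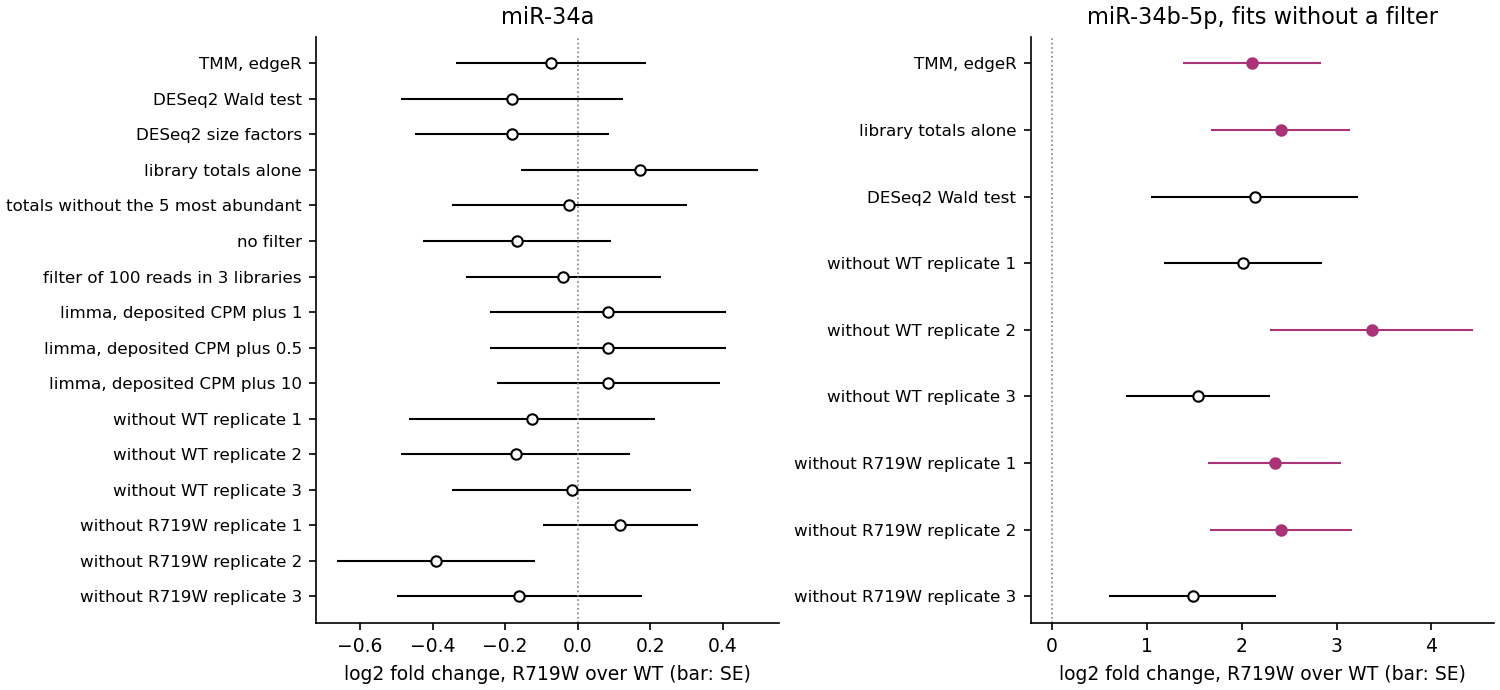
Log2 fold change of R719W over WT (x axis, bars are SE) under each setting (y axis), for miR-34a (left) and for miR-34b-5p in the fits without a filter on low counts (right). Filled points have an adjusted p below 0.05. miR-34a lies on both sides of 0, from −0.39 to 0.17, and is never filled, whereas miR-34b-5p stays between 1.48 and 3.37 and is filled in 5 of the 9 fits drawn. Fits with the replicate number as a block are not drawn, and neither miRNA was called in them.

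The level of miR-34a was the 90th highest of the 181 tested, at a mean of 126 TMM-normalised CPM over the 6 libraries. Sequences differ in ligation and amplification, so an order of levels between miRNAs is approximate. Its neighbours were miR-532-5p (138) and miR-218 (138) above, and miR-340-5p (124) and miR-381 (116) below. None of these 4 was called either. The order of the neighbours was within their spread: miR-532-5p was at 116 ± 16.1 in WT and 160 ± 20.4 in R719W, and miR-340-5p at 131 ± 17.4 and 117 ± 21.1 (SD, n = 3).

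miRNAs whose values moved most like miR-34a from library to library shared its dip in R719W replicate 1. The 5 highest Pearson correlations over the 6 libraries, on log2 levels, were those of miR-204 (0.994), miR-93 (0.963), miR-484 (0.954), miR-125b\* (0.933) and miR-17 (0.932). They are a description of points that share libraries and scaling. miR-204 had nearly the same level as well, at 108, 86.6 and 117 TMM-normalised CPM in WT and 47.9, 130 and 115 in R719W. By its level in R719W replicate 1 relative to R719W replicates 2 and 3, miR-34a ranked 20 from the lowest of the 181. None of the 5 was called, with edgeR adjusted p between 0.486 and 0.831.

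The miR-34b and miR-34c entries were close to the limit of detection, and miR-34b-5p was higher in R719W by reads and level. miR-34b-5p, the 5′ arm of the miR-34b hairpin, had 1, 3 and 0 reads in WT replicates 1, 2 and 3 and 5, 6 and 14 reads in R719W. These were 1.35, 3.66 and 0 TMM-normalised CPM in WT and 5.09, 4.80 and 13.2 in R719W. The groups did not overlap, but WT replicate 2 and R719W replicates 1 and 2 lay close together, and the Poisson intervals of WT replicates 1 and 2 met those of every R719W library. The means were 1.67 ± 1.85 and 7.70 ± 4.77 TMM-normalised CPM (SD, n = 3; exact permutation test, two-sided, p = 0.1, and 3 against 3 libraries allow none smaller). Summed over each group, 25 against 4 reads made a 4.84-fold ratio, with a counting interval of 1.67 to 19.1 that leaves out the spread between libraries.

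miR-34b-5p did not pass the filter on low counts. In an edgeR fit without that filter, its log2 fold change was 2.10 (SE 0.73; adjusted p = 0.0325), and that fit called 48 of 387 miRNAs (12.4%), 29 of them higher in R719W (7.49%). The call was also made with library totals alone (adjusted p = 0.0155), and was lost with DESeq2 (adjusted p = 0.170). Leaving out 1 library ended it for WT replicate 1 (adjusted p = 0.148), WT replicate 3 (0.248) and R719W replicate 3 (0.311), where the log2 fold change was 2.02, 1.54 and 1.48. Among the 206 untested miRNAs with a read, 22 (10.7%) had every R719W library above every WT library, as miR-34b-5p had, and 4 (1.94%) the reverse. The 206 include entries with too few reads to show this, such as miR-34b-3p with 1 read. At least the 29 reads of miR-34b-5p were held by 31 of the untested entries. Of these, miR-351, miR-382, miR-147, miR-1981, miR-18a, miR-574-5p, miR-375 and miR-34b-5p itself had the pattern, a larger share than over the 206.

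miR-34c, from the hairpin next to that of miR-34b, was read in R719W libraries only, and at very low counts. It had 0 reads in each WT library and 0, 4 and 2 reads in R719W replicates 1, 2 and 3, or 0, 3.20 and 1.89 TMM-normalised CPM. The groups overlapped at 0, and the means were 0 and 1.70 ± 1.61 (SD, n = 3; exact permutation test, two-sided, p = 0.4). Taking 3 reads over the WT group as the floor, 6 reads in R719W were at least 1.55-fold higher, but the counting interval of the ratio reached down to 0.91, so that no difference was inside it. Without R719W replicate 2 the difference in mean level of 1.70 was 0.94 TMM-normalised CPM. A lack of reads in WT is common among untested entries: 50 of the 206 with a read (24.3%) had 0 reads in all WT libraries, and 20 (9.71%) had 0 in all R719W libraries. These shares include entries with fewer reads than the 6 of miR-34c, for which 0 in a group is likelier. The share among entries with about as many reads was not taken. The filterless fit gave miR-34c an adjusted p of 0.155 by edgeR.

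The other arms were rarer still. miR-34b-3p had 1 read in all, in R719W replicate 3, against 29 reads on miR-34b-5p, so the 3′ arm made up 3.33% of the reads on that hairpin (95% Wilson interval 0.591% to 16.7%). miR-34c\*, the 3′ arm of the miR-34c hairpin, had 0 reads in the 6 libraries. The 3′ arm of miR-34a was not analysed here.

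Together, miR-34b and miR-34c made up a larger share of the family's reads in each R719W library than in any WT library. The share was 1 of 100 reads (1%), 3 of 96 (3.12%) and 0 of 139 in WT replicates 1, 2 and 3, where 0 of 139 allows up to 2.16% (3 reads). In R719W it was 5 of 83 reads (6.02%), 10 of 204 (4.90%) and 17 of 158 (10.8%). R719W replicate 3 stood highest. The Wilson intervals of R719W replicates 1, 2 and 3 (2.60% to 13.3%, 2.68% to 8.79% and 6.83% to 16.6%) all overlapped that of WT replicate 2 (1.07% to 8.79%). The means were 1.38% ± 1.60 and 7.23% ± 3.11 (SD, n = 3; exact permutation test, two-sided, p = 0.1, the smallest possible).

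**Figure D3:**
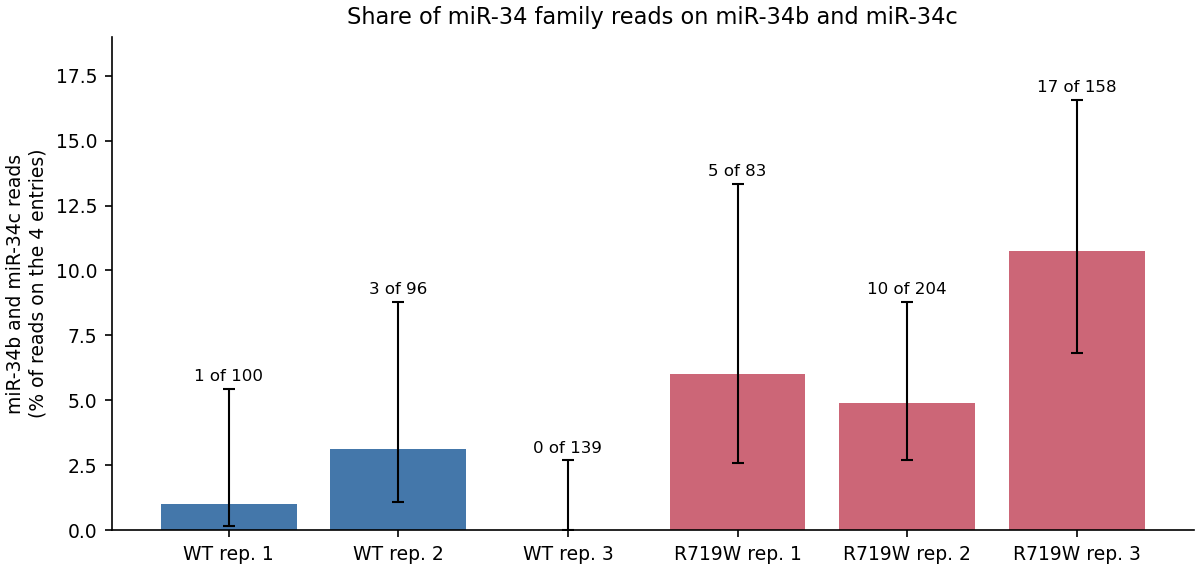
Reads on miR-34b-3p, miR-34b-5p and miR-34c as a percentage of the reads on all 4 miR-34 entries (y axis) in each WT (blue) and R719W (red) library. Bars are the shares, lines 95% Wilson intervals, and the numbers above give the reads. The R719W shares run from 4.90% to 10.8% and the WT shares from 0 to 3.12%.

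The ratio of miR-34a to the sum of miR-34b and miR-34c does not depend on the scaling between libraries. With 0.5 reads added to both, miR-34a exceeded the sum by a log2 ratio of 6.05, 4.74 and 8.12 in WT replicates 1, 2 and 3 and of 3.84, 4.21 and 3.02 in R719W. Every R719W library lay below every WT library. The mean log2 ratio was 6.31 ± 1.71 in WT and 3.69 ± 0.61 in R719W, a difference of −2.62 (SD, n = 3; exact permutation test, two-sided, p = 0.1, the smallest possible). The size rests on few reads: the difference was −2.16 with 1 read added and −1.71 without WT replicate 3, whose 0 reads give the highest ratio.

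The summed level of miR-34b-3p, miR-34b-5p and miR-34c was 1.35, 3.66 and 0 TMM-normalised CPM in WT and 5.09, 8.0 and 16.0 in R719W. The means were 1.67 ± 1.85 and 9.71 ± 5.67 (SD, n = 3; exact permutation test, two-sided, p = 0.1), and without R719W replicate 3 the difference of 8.04 was 4.88. The direction was the same when scaled by the size factors of DESeq2 (7.56), by library totals (9.30) and by totals leaving out the 5 most abundant miRNAs (8.34).

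These reads added little to the family as a whole. Summed over the 4 entries, the family stood at 135, 117 and 140 TMM-normalised CPM in WT and at 84.5, 163 and 149 in R719W. The means, 131 ± 12.3 and 132 ± 41.9, overlapped (SD, n = 3; exact permutation test, two-sided, p = 1). Counting every entry with the seed GGCAGTG, miR-449 included, miR-34a supplied 97.9% of the seed's reads in WT (331 of 338, 95% Wilson interval 95.8% to 99.0%) and 91.8% in R719W (413 of 450, 88.9% to 94.0%). The summed level of the seed was 132 ± 11.2 (WT) and 134 ± 42.2 (R719W) TMM-normalised CPM (SD, n = 3; exact permutation test, two-sided, p = 1).

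The relatives with the same seed had few reads. miR-449a, a miRNA of multiciliated cells, had 1, 2 and 0 reads in WT and 1, 1 and 4 in R719W. Its levels, 1.26 ± 1.22 and 1.86 ± 1.66 TMM-normalised CPM, overlapped (SD, n = 3; exact permutation test, two-sided, p = 0.7). miR-449b and miR-449c had 0 reads in each of the 6 libraries.

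Markers of cell types were summed in the same libraries. Their counts are to be read against all tested miRNAs, of which 19.9% were called and 40.9% had no overlap between the genotypes. Of the 6 ciliated epithelium markers, which include the 3 miR-34b and miR-34c entries, 4 had reads, miR-449b and miR-449c were at 0, and the list summed to 0 to 6.10 TMM-normalised CPM in WT and 6.11 to 19.8 in R719W. The epithelial list (miR-200a, miR-200b, miR-200c, miR-141, miR-429, miR-203 and miR-205) had reads on 6 of 7 entries, with miR-205 at 0. It overlapped between genotypes at 400 to 472 and 351 to 439 TMM-normalised CPM, nearly all of it miR-203. The neuronal list had reads on 3 of 4 entries, with miR-124 at 0, and overlapped at 52.4 to 62.3 and 44.8 to 59.4. Of the 3 fibroblast markers, 2 (miR-199a-5p and miR-214) matched an entry by name and were called higher, at log2 fold changes of 2.83 and 3.25. They summed to 80.8 to 145 in WT and 838 to 1163 in R719W. The other, miR-199a-3p, shares 1 entry with miR-199b and was left out of that sum. That entry rose less, by a log2 fold change of 0.87 (SE 0.23, edgeR adjusted p = 0.0276). All 6 leukocyte entries had reads, and their sum, 870 to 1007 in WT and 1074 to 1405 in R719W, did not overlap, though 2 of the 5 tested (miR-150 and miR-342-3p) fell. Most of that sum was miR-142-3p, at means of 578 in WT and 899 in R719W, which was not called (edgeR adjusted p = 0.0625). The 5 tested had 2 positive and 3 negative log2 fold changes, with a median of −0.52. The 2 endothelial entries, neither of them called, summed to 17980 to 22206 in WT and 15193 to 16805 in R719W, also without overlap at this scaling. All marker sums were compared after TMM scaling only (factors 0.83 to 1.22), and a gap as narrow as the endothelial one can close under another scaling. The erythroid sum (3 of 3 entries with reads) overlapped at 1966 to 3301 and 1361 to 2570, and the smooth muscle sum (2 of 2) at 20924 to 36206 and 17214 to 25584. Of the 5 tested heart muscle entries, miR-499 was called lower, at −1.14 (SE 0.20, edgeR adjusted p = 0.00808), and 4 were not called. The 5 had 1 positive (miR-208b, 0.67) and 4 negative log2 fold changes. The number of miRNAs with at least 1 read was also higher in R719W, at 307 to 332 against 286 to 298 in WT. The part of these differences in the miR-34b and miR-34c values was not tested. Reads on miRNAs in replicates 1, 2 and 3 were 817935, 765425 and 1192020 in WT and 1032928, 1168379 and 865845 in R719W. The reads on miR-34b and miR-34c were 1, 3 and 0 in WT and 5, 10 and 17 in R719W. The part of depth in their difference was not tested either.

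A list of other miRNAs linked to p53 held miR-15a and miR-16, miR-107, miR-143 and miR-145, miR-192, miR-194 and miR-215, miR-141 and miR-200c, and miR-605, which are known to be induced by p53 or processed more when it is active. It matched 15 entries of both arms, none of them of miR-605, and of these 12 had reads and 6 were tested. Of these 6, 0 rose, 0 fell and 6 did not pass edgeR's test. Over all tested miRNAs 19.9% were called, and with 6 entries a count of 0 lies near that share and says nothing particular about the list. The 6 had 1 positive and 5 negative log2 fold changes and a median of −0.32, against a median of 0.10 over all tested miRNAs. DESeq2 and limma on the deposited CPM plus 1 also called 0 of the 6, with lowest adjusted p of 0.0670 and 0.204. At an unadjusted edgeR p under 0.05 there was 1, miR-194, with means of 71.6 ± 9.88 (WT) and 42.6 ± 13.8 (R719W) TMM-normalised CPM (SD, n = 3) and a log2 fold change of −0.73 (SE 0.27; edgeR adjusted p = 0.0844). miR-107 followed, with means of 73.9 ± 10.5 and 52.2 ± 7.60 (SD, n = 3) and a log2 fold change of −0.49 (SE 0.22; edgeR adjusted p = 0.130).

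**Figure D4:**
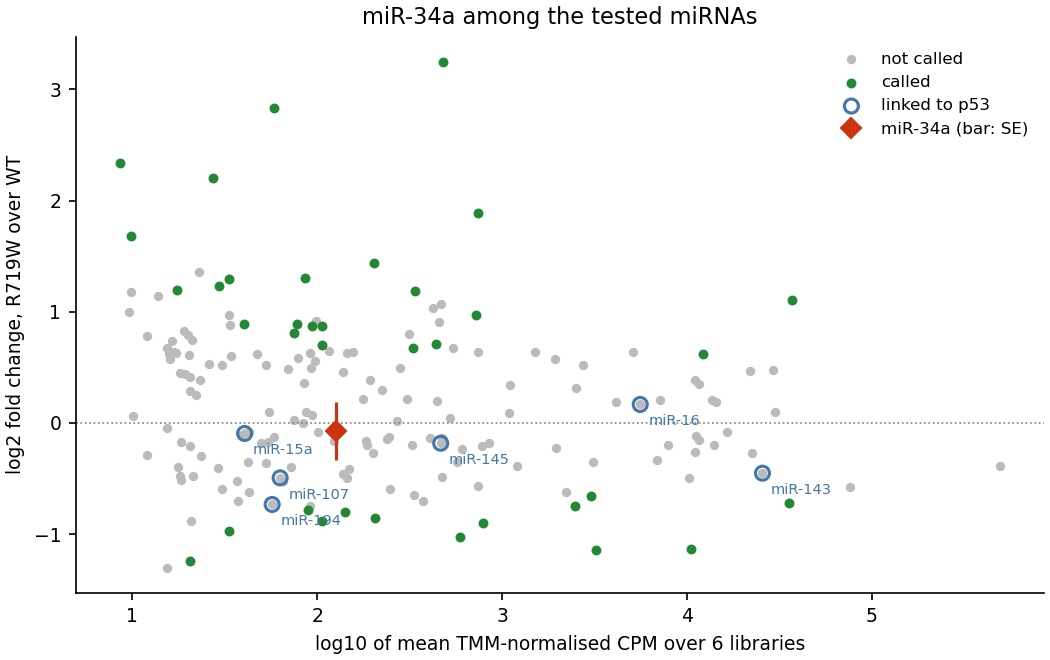
Log2 fold change of R719W over WT (y axis) against the log10 of the mean TMM-normalised CPM over the 6 libraries (x axis) for the 181 tested miRNAs, with the 36 called ones in green. miR-34a (red diamond, bar is SE) lies near 0, at −0.07, in the middle of the range of levels. The 6 tested miRNAs linked to p53 (blue circles) are all among the uncalled, from −0.73 to 0.17.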

How the data were processed

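Total RNA of 6 left ventricles was isolated with a kit that keeps small RNAs and made into multiplexed miRNA libraries, per the labels' protocols. No source used here gives the aligner, mismatch setting, annotation release or genome build. The authors deposited read counts per mature miRNA and library, whole numbers without normalization, and a normalized value that equals CPM, reads scaled to a common total over the listed miRNAs. Columns were matched to samples by barcode.

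Counts were analysed with edgeR 4.0.16 in R 4.3.3 over all miRNAs that passed filterByExpr by genotype (at least 10 reads, 15 in total), with TMM scaling (factors 0.83 to 1.22), glmQLFit and glmQLFTest, two-sided, and Benjamini-Hochberg adjustment. The biological coefficient of variation was 22.5%. Standard errors were taken as the size of the log2 fold change over the square root of F. This step was tested on simulated data. Entries below the filter, sums and ratios were compared by exact permutation tests (scipy 1.17.1). Alternatives used DESeq2 1.42.0, limma 3.58.1 on log2 of the deposited CPM plus a pseudocount, other scalings and filters, a replicate block and each library left out.

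The members, lists and tests were chosen with earlier results of these data known. Named besides the members were entries with their seed or family name, the 5 miRNAs most correlated with miR-34a, 4 neighbours in level, and tested or called entries of the p53 list. Sequences came from the deposited tables and RefSeq (GRCm38.p6), in which 7 of the 8 miR-34 and miR-449 entries matched a hairpin.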

Additional observations from a re-analysis of the deposited data

How the results depend on the processing

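miR-34a was not called under any of the 16 alternatives run. Its log2 fold change of −0.07 turned positive in 5 of them, at 0.17 with library totals alone, 0.0841, 0.0840 and 0.0847 with limma on the deposited CPM plus 1, plus 0.5 and plus 10, and 0.12 without R719W replicate 1; leaving out 1 library at a time gave −0.39 to 0.12. The cause was not tested. The summed family, 1.31 TMM-normalised CPM higher in R719W, turned to −8.48 with DESeq2's size factors, and ranged from −14.2 to 25.2 with 1 library left out. For miR-34b-5p, a call appeared in the fits without a filter, at a log2 fold change of 2.10 with TMM and 2.41 with library totals alone. Every fit without a filter other than the one with TMM on all libraries was chosen after seeing the data. With 1 library left out such fits gave 1.48 (without R719W replicate 3) to 3.37 (without WT replicate 2), 2.35 without R719W replicate 1, and the difference in level 3.28 to 7.48 TMM-normalised CPM. The direction of the miR-34b and miR-34c sum and of the log2 ratio held in all 10 alternatives of each (4.88 to 10.3 TMM-normalised CPM and −3.40 to −1.59). Most of these could not have turned it. The groups did not overlap, so leaving out 1 library keeps the direction, and the replicate block leaves the difference itself unchanged. The ratio difference of −1.59 came with miR-34c alone in the denominator, where every WT library and R719W replicate 1 had 0 reads. Their ratios in that setting rest on the miR-34a reads and the 0.5 reads added, so its direction is partly set by the added reads. With 0 reads added the ratio has no value, since WT replicate 3 had no read in the denominator; the filter of 100 reads and limma gave none for the entries below the filter, and the DESeq2 test gave values for them only without a filter, with an adjusted p for miR-34b-5p alone (log2 fold change 2.14, adjusted p = 0.170). The count of 36 calls was 20 with totals without the 5 most abundant miRNAs, 22 with the filter of 100 reads in 3 libraries and 4 to 56 with 1 library left out.

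Samples with the same replicate number did not deviate together (correlations −0.18, −0.37 and −0.01), so the numbers were not treated as pairs. With the replicate block there were 30 calls, and miR-34a stood at −0.12; in the fit without a filter miR-34b-5p was at 2.09 (adjusted p = 0.0902). Flipping signs within numbers allows no p below 0.25. Depth limits every statement on miR-34b and miR-34c.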

Other observations

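The 22 untested miRNAs whose R719W libraries all exceeded the WT libraries held other low-level entries beside miR-34b-5p. They were chosen here after their values were seen and are given with no test. miR-382 and miR-376b, from the imprinted Dlk1-Dio3 region, had 6 and 1 reads in WT and 38 and 22 in R719W. miR-375, known from endocrine and epithelial cells, had 11 and 25 reads. miR-206, known from skeletal muscle, had 0 and 9 reads.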
